A study of Mus musculus with 24 samples.

Results

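The genes described here belong to the unfolded protein response and the integrated stress response: Hspa5, Hsp90b1, Dnajb9, Dnajc3, Herpud1, Xbp1, Atf4, Ddit3, Trib3 and Asns. They were found by symbol among the array probe sets that the platform annotation pairs with exactly 1 gene, and where a gene had several such probe sets the brightest was taken. This gave 9 of the 10 listed genes, out of 18820 genes measured in the series. Ddit3, which encodes the stress-induced factor CHOP, has no value because its probe set carries 2 symbols, Mars1 and Ddit3. Dnajc3 had 2 probe sets with identical values on every array.

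The study profiled 24 arrays of mouse liver tissue and cultured primary hepatocytes in 8 groups of 3 arrays each. All mice are labelled as males aged 8 weeks, and all 4 genotypes were sampled in both materials: control mice (NEMOf/f, a floxed NEMO gene), NEMOΔhepa mice, KEAP1Δhepa mice and NEMOΔhepa/KEAP1Δhepa double knockouts. The deletions were made with the Alfp-Cre transgene, which acts in the liver's parenchymal lineage, so the other liver cells keep both genes. KEAP1 holds the antioxidant regulator NRF2 in check, and NEMO, encoded by Ikbkg, is needed for NF-kB activation. Hepatocytes were freed by collagenase perfusion, left to attach to dishes overnight and given new medium. Values are log2 levels, so a difference of 1 is 2-fold, and ± marks an SD over 3 arrays for a level and a standard error for a difference. The labels number the arrays within a group and do not say whether a liver and a hepatocyte array came from 1 animal.

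The unfolded protein response is set off when misfolded proteins build up in the endoplasmic reticulum. IRE1 splices Xbp1 mRNA into the form that encodes an active factor, ATF6 is cut into a factor that raises chaperone genes, and PERK phosphorylates the initiation factor eIF2alpha. That phosphorylation, which other kinases also perform when amino acids or haem run short, lowers general translation while it favours translation of ATF4, and this branch is the integrated stress response. Hepatocytes secrete much protein and carry a large endoplasmic reticulum. An array level of Xbp1 mRNA does not give its spliced share, and an Atf4 mRNA level does not give ATF4 protein.

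Promoters of the members are shown first, with any stress response motifs found in them. They are RefSeq sequences of build GRCm38.p6, which held all 10 listed genes, searched on both strands from 250 bases before to 50 after the annotated start. Capitals mark motif matches, and positions count from the start site, with -1 the base just before it. Hspa5 (chr2:34771990-34772069, plus strand), Hsp90b1 (chr10:86705513-86705676, minus strand) and Dnajc3 (chr14:118937807-118937886, plus strand) are shown for the endoplasmic reticulum stress response element, which reads CCAAT, any 9 bases, then CCACG.
Hspa5: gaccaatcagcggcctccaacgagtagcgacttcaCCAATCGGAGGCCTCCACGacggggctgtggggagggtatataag
Hsp90b1: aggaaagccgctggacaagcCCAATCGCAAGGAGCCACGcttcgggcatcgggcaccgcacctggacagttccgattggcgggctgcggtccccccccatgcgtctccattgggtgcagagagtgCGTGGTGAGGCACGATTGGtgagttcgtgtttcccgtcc
Dnajc3: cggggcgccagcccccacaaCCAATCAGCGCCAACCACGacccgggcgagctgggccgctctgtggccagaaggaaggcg
The match lay at -65 to -47 in Hspa5 and at -105 to -87 in Dnajc3. Hsp90b1 had a match at -212 to -194 and another on the opposite strand at -107 to -89. Of 32851 promoters of the same length in the table, 0.119% held this motif. Herpud1 (chr8:94386230-94386407, plus strand) is shown for the second such element, which reads ATTGG, any base, then CCACG, at -52 to -42, which 0.0365% of promoters held.
Herpud1: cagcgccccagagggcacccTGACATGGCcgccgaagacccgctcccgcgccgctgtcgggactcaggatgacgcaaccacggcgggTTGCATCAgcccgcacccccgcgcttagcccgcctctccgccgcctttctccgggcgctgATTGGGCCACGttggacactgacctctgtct
The other capitals in Herpud1 mark the amino acid response core TGATGNAA on the opposite strand (-112 to -105) and the antioxidant response core TGACNNNGC (-179 to -171). Asns (chr6:7693210-7693401, minus strand) carried the amino acid response core at -23 to -16 and an antioxidant response core on the opposite strand at -172 to -164.
Asns: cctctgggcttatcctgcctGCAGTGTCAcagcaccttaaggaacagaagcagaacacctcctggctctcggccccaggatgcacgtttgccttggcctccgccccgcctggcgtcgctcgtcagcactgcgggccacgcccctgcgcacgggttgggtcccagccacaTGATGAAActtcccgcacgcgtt
The amino acid response core was in 3.97% of all promoters and the antioxidant response core in 12.4%. Dnajb9 (chr12:44210089-44210168, minus strand) and Trib3 (chr2:152344081-152344160, minus strand) are shown because they are the members called in the comparisons below.
Dnajb9: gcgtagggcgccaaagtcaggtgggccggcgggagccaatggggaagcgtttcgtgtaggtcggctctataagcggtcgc
Trib3: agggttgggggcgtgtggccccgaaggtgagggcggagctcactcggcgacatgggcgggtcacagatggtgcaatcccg
Neither stretch has capitals, since no upstream match was found in these 2 promoters for those motifs or for TGACGTGG (in 0.676% of promoters), while Trib3 had an amino acid response core after its start, at 15 to 22 on the opposite strand. Xbp1, Atf4 and Ddit3, whose promoters are not shown, had no match to any of the 5 motifs. The 5 motifs do not overlap each other at any site named here. These are matches of letters, not sites shown to be bound.

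The targeted genes and the NRF2 target Nqo1 were compared with the labels first. Ikbkg was at 6.14 to 6.26 in NEMO knockout livers and 6.26 to 6.60 in NEMO knockout hepatocytes, against 6.40 to 6.86 and 6.63 to 6.69 in the controls. Keap1 was at 5.38 to 5.76 in KEAP1 knockout livers against 5.88 to 6.35 in the controls. In hepatocytes it lay between 5.73 and 5.91 against 5.90 to 6.32. Double knockout livers had Keap1 at 5.75 to 5.93 and Ikbkg at 6.18 to 6.47, and both ranges overlapped the controls at 1 array, control 3 (5.88 and 6.40). Double knockout hepatocytes had Keap1 at 5.62 to 5.87 and Ikbkg at 6.01 to 6.29, both below all controls. For 4 arrays the values did not match the label or lay far from the rest of the group. Nqo1 on the array labelled liver control 3 was 9.17, against 4.71 and 5.37 on the other liver controls and 9.25 to 9.36 on liver double knockouts. Slc7a11, the cystine transporter, was 9.29 on it and 2.63 and 2.42 on the other liver controls. Liver double knockout 3 had the fat cell gene Adipoq at 7.17, against at most 2.76 elsewhere. Against the label of male, Xist was 9.65 on hepatocyte control 1 and 9.76 on hepatocyte double knockout 3, where Eif2s3y, a gene of the Y chromosome, was 2.51 and 2.71. Members were therefore fitted with all arrays and, as an alternative added after the values were seen, without these 4 arrays, which leaves 20. In that alternative each control and double knockout group of both materials holds only 2 arrays. Values are of all arrays unless stated. Hepatocyte markers (5 genes) had a mean level between 12.11 and 12.53 on every array of both materials. Setting all array medians equal moved the median difference of all genes from control by up to 0.2 (log2), for example from -0.03 to -0.23 in double knockout hepatocytes, and turned no called direction among the 9 genes.

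The 9 genes covered a wide range of levels. Averaged over a group, Hspa5, the main endoplasmic reticulum chaperone BiP, and Hsp90b1, the chaperone GRP94, were at the top, with Hspa5 arrays between 10.86 and 12.12 and Hsp90b1 arrays between 11.32 and 12.04. These values placed them at or above the 98.7th percentile of genes on every array. Trib3, an ATF4-induced pseudokinase that damps its own pathway, had the dimmest probe set, at 4.22 to 6.51. Brightness also depends on the probes, so the order of probe sets is not an order of mRNA amounts.

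**Figure D1:**
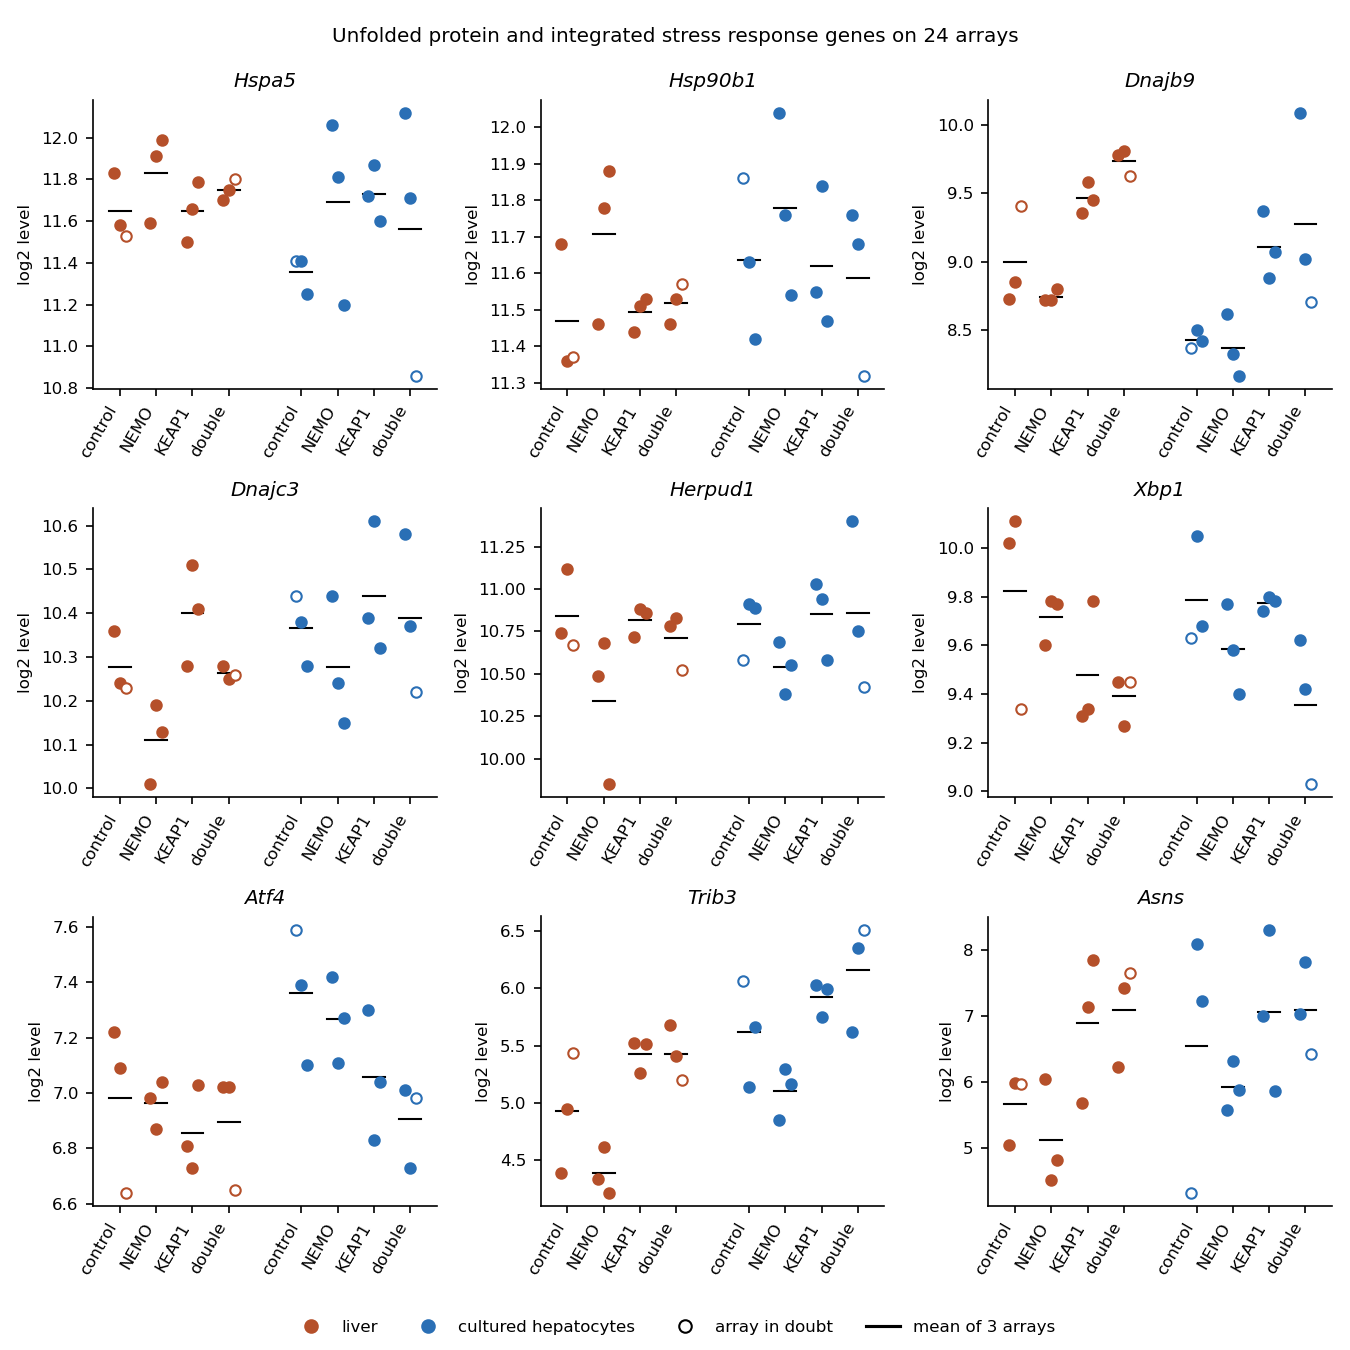
Log2 level (vertical axis) of each of the 9 measured genes on every array, by genotype (horizontal axis), for liver (left, orange) and cultured hepatocytes (right, blue). Points are arrays, lines are means of 3, and open points are the 4 arrays in doubt. Dnajb9 sits higher in both KEAP1 knockout and double knockout groups than in NEMO knockouts, and Asns scatters over 3.97 log2 units. Hspa5 in control hepatocytes, at 11.25 to 11.41, lies below every liver array and every KEAP1 knockout hepatocyte array, and its other groups overlap.

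Dnajb9 and Trib3 were the only members called with all arrays, each in 1 comparison. Dnajb9 encodes ERdj4, a co-chaperone of BiP that also holds IRE1 inactive. In livers it was 8.73, 8.85 and 9.41 in controls, 8.72, 8.72 and 8.80 in NEMO knockouts, 9.36, 9.58 and 9.45 in KEAP1 knockouts and 9.78, 9.81 and 9.63 in double knockouts. All 3 double knockout livers were above all NEMO knockout, KEAP1 knockout and control livers, and the control of 9.41 is the array in doubt. In hepatocytes it was 8.37, 8.50 and 8.42 in controls, 8.62, 8.33 and 8.17 in NEMO knockouts, 9.37, 8.88 and 9.07 in KEAP1 knockouts and 10.09, 9.02 and 8.71 in double knockouts. Here every array of both groups without KEAP1 was above every array of both groups with it.

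Against NEMO knockout livers, Dnajb9 rose by 1.00 ± 0.15 in double knockout livers (2-fold, n = 3 against 3; limma, adjusted p = 0.0113). It was the only one of the 9 genes called in that comparison, where 1.05% of all genes were called. The call was lost when NEMO knockout 3 was left out (limma, adjusted p = 0.0557, change 1.02). It was also lost when double knockout 1 (0.0567, change 0.98) or double knockout 2 (0.0501, change 0.96) was left out. Without the 4 arrays in doubt the change was 1.05 ± 0.09 (limma, adjusted p = 3.94e-05; 3.46% of genes called). The corresponding difference in hepatocytes was 0.90 ± 0.26 (limma, adjusted p = 0.0872). With the doubted arrays removed it was 1.18 ± 0.25 (limma, adjusted p = 0.0191; 3.8% of genes called). The mean level of the 5 hepatocyte markers was 12.11 to 12.30 in double and 12.38 to 12.53 in NEMO knockout livers, without overlap, and its part in the Dnajb9 difference was not tested.

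Against controls the call for Dnajb9 turned on the arrays in doubt. In KEAP1 knockout livers the difference was 0.46 ± 0.15 with all arrays (limma, adjusted p = 0.617, where 0% of genes were called) and 0.67 ± 0.09 without the doubted ones (limma, adjusted p = 0.00127, where 5.26% were called). In double knockout livers it was 0.75 ± 0.15 (limma, adjusted p = 0.134, with 0.00531% of genes called) and 1.01 ± 0.10 (limma, adjusted p = 0.000105, with 9.2% called). The latter value compares 2 arrays with 2. Leaving out liver control 3 alone gave 0.67 (limma, adjusted p = 0.00329) and 0.95 (limma, adjusted p = 0.000166). With the replicate number as a block the double knockout difference of 0.75 was called in all arrays too (limma, adjusted p = 0.0277). The block raised all genes called there from 1 to 799. Replicate 3 of both the control and the double knockout livers is an array in doubt. Double knockout hepatocytes differed from their controls by 0.84 ± 0.26 (limma, adjusted p = 0.0655). With the doubted arrays removed the value was 1.09 ± 0.27 (limma, adjusted p = 0.0238), where 9.72% and 9.23% of genes were called. KEAP1 knockout hepatocytes differed by 0.68 ± 0.26 (limma, adjusted p = 0.261; 1.87% of genes called). NEMO loss alone gave no called difference for Dnajb9, at -0.25 ± 0.15 in liver (95% interval -0.57 to 0.06) and -0.06 ± 0.26 in hepatocytes (-0.63 to 0.51). Whole liver holds several cell types, and fewer cells of a type cannot be told apart from less RNA per cell.

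**Figure D2:**
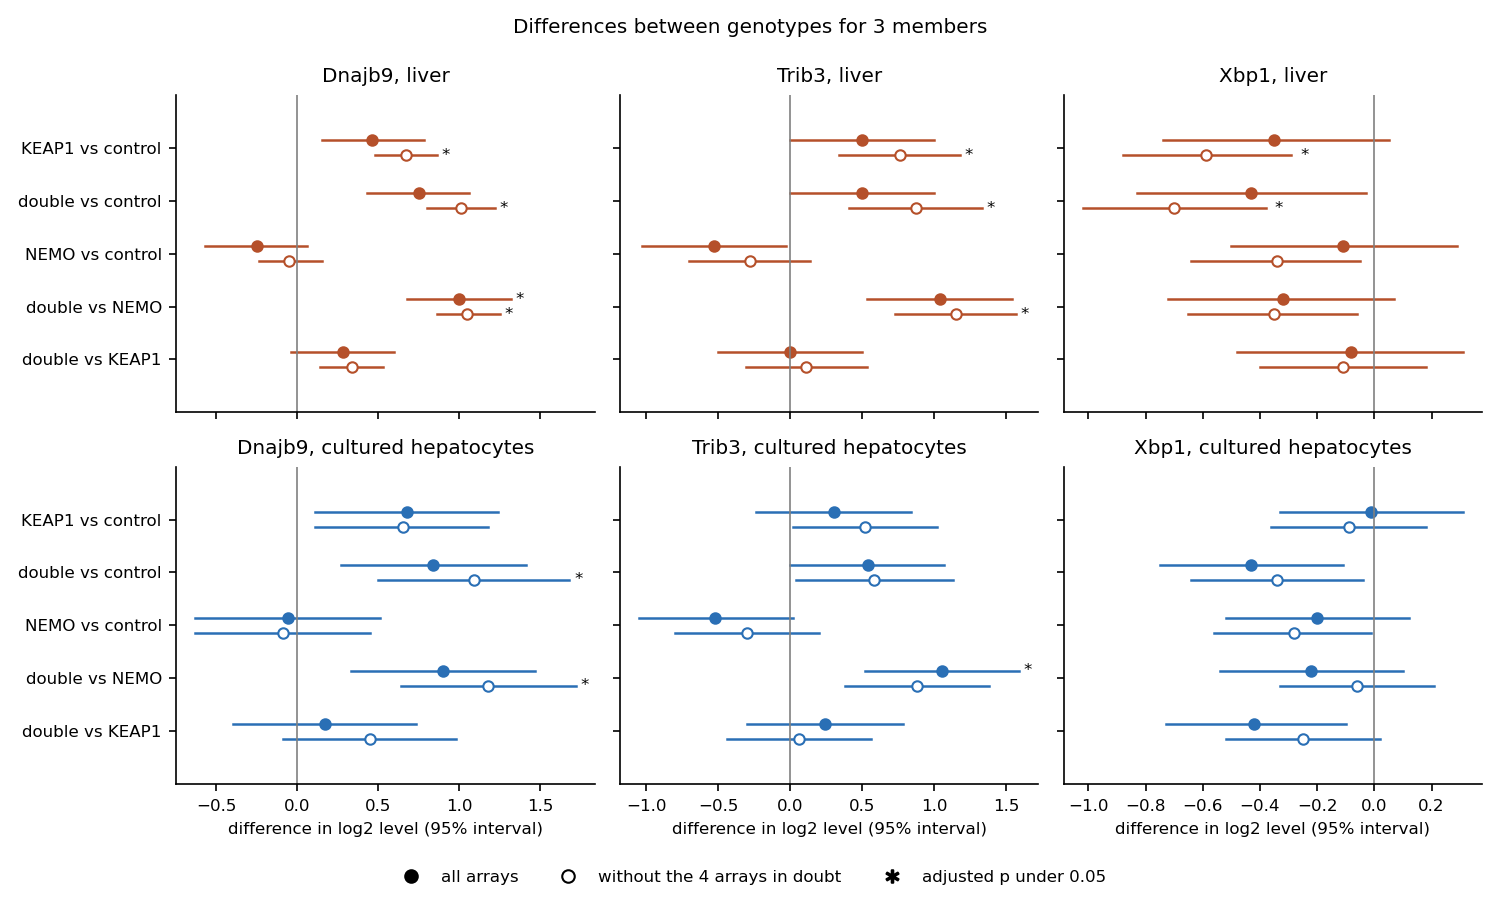
Difference in log2 level (horizontal axis) with its 95% interval for Dnajb9, Trib3 and Xbp1 in 5 comparisons of genotypes (vertical axis), in liver (top) and hepatocytes (bottom). Filled points use all arrays, open points leave out the 4 arrays in doubt, and a star marks an adjusted p under 0.05. Dnajb9 and Trib3 lie about 1 above 0 for the double against the NEMO knockout in both materials.

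Trib3 had its lowest group mean in the NEMO knockouts of both materials, at 4.39 ± 0.21 in liver and 5.11 ± 0.23 in hepatocytes. Its liver levels were 4.39, 4.95 and 5.44 in controls, 4.34, 4.62 and 4.22 in NEMO knockouts, 5.52, 5.26 and 5.51 in KEAP1 knockouts and 5.68, 5.41 and 5.20 in double knockouts. All 3 double knockout livers were above all NEMO knockout livers, and the highest control, 5.44, is the array in doubt. In hepatocytes it was 6.06, 5.14 and 5.66 in controls, 4.85, 5.30 and 5.17 in NEMO knockouts, 6.03, 5.75 and 5.99 in KEAP1 knockouts and 5.62, 6.35 and 6.51 in double knockouts. Again no double knockout array overlapped a NEMO knockout array. Among the 9 genes, 4 were higher in double than in NEMO knockout livers without overlap (Dnajb9, Dnajc3, Trib3 and Asns) and 1 was lower (Xbp1), against 8.87% and 9.74% of all genes. In hepatocytes 3 were higher (Dnajb9, Trib3 and Asns) and 1 lower (Atf4), against 11.1% and 9.72%. Separations of members named for other pairs of groups have no share of all genes beside them and are descriptions only.

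Double knockout hepatocytes had 1.05 ± 0.25 more Trib3 than NEMO knockout hepatocytes (2.08-fold; limma, adjusted p = 0.0363; 3.32% of genes called). This call was lost without any one of the 3 NEMO knockouts (adjusted p from limma of 0.129, 0.0743 and 0.0854), without double knockout 2 (0.139) or double knockout 3 (0.111), and without the arrays in doubt, where the difference was 0.88 ± 0.23 (limma, adjusted p = 0.0572). In liver the same comparison gave 1.04 ± 0.23 (limma, adjusted p = 0.0592). With the doubted arrays removed it was 1.15 ± 0.19 (limma, adjusted p = 0.00611). Against liver controls, without the arrays in doubt, Trib3 rose by 0.76 ± 0.19 in KEAP1 knockouts (limma, adjusted p = 0.0441) and by 0.87 ± 0.21 in double knockouts (limma, adjusted p = 0.0245). With all arrays both differences were 0.50 ± 0.23 (limma, adjusted p = 0.65 and 0.241).

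Markers of other cell types were read beside these differences. In double against NEMO knockout livers, with all arrays, 0 of 8 stellate cell, 0 of 7 macrophage and 0 of 6 endothelial markers were called, and 0 of each were called without the arrays in doubt. Mean macrophage levels were 8.29 to 8.40 against 8.06 to 8.27 and endothelial levels 8.06 to 8.26 against 7.82 to 8.02, both without overlap, while stellate levels overlapped. Neutrophil markers (4 genes, 0 called) were at 4.02 to 4.43 in double and 3.64 to 3.80 in NEMO knockout livers, also without overlap. Pancreatic acinar markers (4 genes) were at 3.72 to 3.94 against 3.53 to 3.69, with 0 called in all arrays and 1, Cela1, called higher without those in doubt. Cholangiocyte markers (5 genes) reached 6.37 in double knockout livers, against at most 4.68 in NEMO knockouts, and fat cell markers (5 genes) reached 6.28 against 3.68. Both groups of markers overlapped and 0 of each were called. The T and natural killer cell markers (6 genes, 0 called) and the B and plasma cell markers (6 genes) overlapped, and Sdc1 of the latter fell by 0.66 ± 0.14 (limma, adjusted p = 0.0494). The part of these cells in the differences between double and NEMO knockout livers was not tested. In hepatocytes 0 of 8 stellate, 1 of 7 macrophage (Marco) and 1 of 6 endothelial markers (Lyve1) were called higher, and Lyve1 was not called without the arrays in doubt. Of the other lists there, 0 genes were called in all arrays, and without those in doubt 1 was, the neutrophil gene S100a8. Against control the cultures differed more: all 8 stellate, all 7 macrophage and all 6 endothelial markers were called higher in double knockout hepatocytes, where mean macrophage marker levels ran from 8.04 to 8.51 against 5.63 to 6.56 in controls. The mean endothelial level ran from 7.86 to 7.99 there, against 5.57 to 6.48, and the mean stellate level from 6.29 to 6.63, against 4.72 to 5.16. In livers without the arrays in doubt, 6 stellate, 6 macrophage and 3 endothelial markers were called higher in double knockouts than in controls, and 5, 1 and 2 in KEAP1 knockouts. The part of these cells in the differences from control was not tested.

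Xbp1, which encodes the factor made active by IRE1, was called lower in livers without KEAP1 once the arrays in doubt were left out, and not with all arrays. Its levels were 10.02, 10.11 and 9.34 in control livers, 9.60, 9.78 and 9.77 in NEMO knockouts, 9.31, 9.34 and 9.78 in KEAP1 knockouts and 9.45, 9.27 and 9.45 in double knockouts. The control of 9.34 is the array in doubt, and the other controls were above all arrays of the other livers. In hepatocytes it was 9.63, 10.05 and 9.68 in controls, 9.77, 9.58 and 9.40 in NEMO knockouts, 9.74, 9.80 and 9.78 in KEAP1 knockouts and 9.62, 9.42 and 9.03 in double knockouts. Without the arrays in doubt Xbp1 fell by 0.59 ± 0.13 in KEAP1 knockout livers (limma, adjusted p = 0.0265) and by 0.70 ± 0.15 in double knockout livers (limma, adjusted p = 0.0118). NEMO knockout livers gave -0.34 ± 0.13 against the same controls, which was not called (limma, adjusted p = 0.119). With all arrays the differences were -0.35 ± 0.18 (limma, adjusted p = 0.665) and -0.43 ± 0.18 (limma, adjusted p = 0.213). Double knockout hepatocytes gave -0.43 ± 0.15 with all arrays and -0.34 ± 0.14 without those in doubt, neither called. There Xbp1 was called with the array medians set equal (-0.62, limma, adjusted p = 0.0102), where 4161 genes were called. It was also called without double knockout 1 (-0.56, limma, adjusted p = 0.0408).

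Atf4, the central factor of the integrated stress response, was at 7.22, 7.09 and 6.64 in control livers, 6.98, 6.87 and 7.04 in NEMO knockouts, 6.81, 6.73 and 7.03 in KEAP1 knockouts and 7.02, 7.02 and 6.65 in double knockouts. The 4 liver groups overlapped. Hepatocytes had 7.59, 7.39 and 7.10 in controls, 7.42, 7.11 and 7.27 in NEMO knockouts, 7.30, 6.83 and 7.04 in KEAP1 knockouts and 7.01, 6.73 and 6.98 in double knockouts. All double knockout hepatocytes were below all control and NEMO knockout hepatocytes. The difference from control was -0.46 ± 0.15 (95% interval -0.78 to -0.14), and it was not called in all arrays. The difference was called with the array medians set equal (-0.65, limma, adjusted p = 0.0116). In that setting 4161 of 18820 genes were called, 3236 of them lower, and the median difference of all genes was -0.23. Atf4 was also called without hepatocyte control 3 (-0.59, limma, adjusted p = 0.0315) and with the replicate block (-0.46, limma, adjusted p = 0.0289). Same-numbered arrays of these 2 groups did not deviate together (residual correlations -0.352, 0.138 and -0.245), so the block has no shown basis here. It was not called without the arrays in doubt.

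The chaperones Hspa5 and Hsp90b1 were called in none of the 19 comparisons, with all arrays or without those in doubt. Hspa5 was 11.83, 11.58 and 11.53 in control livers, 11.59, 11.91 and 11.99 in NEMO knockouts, 11.50, 11.66 and 11.79 in KEAP1 knockouts and 11.70, 11.75 and 11.80 in double knockouts. In hepatocytes it was 11.41, 11.41 and 11.25 in controls, 12.06, 11.81 and 11.20 in NEMO knockouts, 11.72, 11.87 and 11.60 in KEAP1 knockouts and 12.12, 11.71 and 10.86 in double knockouts. The lowest value, 10.86, is from an array in doubt, and KEAP1 knockout hepatocytes were all above control hepatocytes. In liver the 95% intervals of the difference from control reached from -0.07 to 0.44 for NEMO loss and from -0.16 to 0.36 for the double knockout. In hepatocytes they were wider, at -0.23 to 0.90 and -0.36 to 0.77.

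Hsp90b1 lay between 11.36 and 11.68 in control livers and 11.46 and 11.88 in NEMO knockout livers. It was 11.44 to 11.53 in KEAP1 knockout and 11.46 to 11.57 in double knockout livers. Hepatocyte arrays ranged from 11.32 to 12.04. The 4 genotypes overlapped in each material.

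Dnajc3, encoding a co-chaperone also known as p58IPK that restrains PERK, varied least of the 9, with a pooled within-group SD of 0.12 (11.07th percentile of all genes). It was 10.36, 10.24 and 10.23 in control livers and 10.01, 10.19 and 10.13 in NEMO knockout livers, without overlap, and the difference of -0.17 ± 0.08 was not called. KEAP1 knockout livers were at 10.28 to 10.51, double knockout livers at 10.25 to 10.28 and hepatocytes at 10.15 to 10.61. Herpud1, which organises the degradation of misfolded proteins at the endoplasmic reticulum, was 10.74, 11.12 and 10.67 in control livers and 10.49, 10.68 and 9.85 in NEMO knockout livers. The groups overlapped at 10.67 and 10.68, and the difference was -0.51 ± 0.19 with all arrays (limma, adjusted p = 0.189). Without the arrays in doubt it was -0.59 ± 0.19 (limma, adjusted p = 0.0687). The other liver groups lay between 10.52 and 10.88 and hepatocytes between 10.38 and 11.40.

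Asns, which makes asparagine and is a standard ATF4 target, scattered most. Its pooled within-group SD of 1.04 stood at the 99.78th percentile of all genes, where the median gene had 0.20. Livers gave 5.05, 5.99 and 5.97 in controls, 6.04, 4.52 and 4.82 in NEMO knockouts, 5.69, 7.13 and 7.84 in KEAP1 knockouts and 6.22, 7.42 and 7.64 in double knockouts. All double knockout livers were above all controls and NEMO knockouts. The differences of 1.43 ± 0.55 from control and 1.97 ± 0.55 from NEMO knockout were not called (limma, adjusted p = 0.18 and 0.129). In hepatocytes it was 4.33, 8.08 and 7.22 in controls, 5.58, 6.32 and 5.88 in NEMO knockouts, 5.87 to 8.30 in KEAP1 knockouts and 7.02, 7.81 and 6.43 in double knockouts. Control 1, an array in doubt, was the lowest of all 24, and without the doubted arrays NEMO knockout hepatocytes differed from controls by -1.72 ± 0.53 (limma, adjusted p = 0.0914).

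The remaining comparisons called few members. With all arrays, limma called 0 of 9 members in 17 of the 19 comparisons. Against control these include KEAP1 and double knockout livers, with 3 and 4 members at an unadjusted p under 0.05 (7.69% and 20.7% of all genes), and KEAP1 and double knockout hepatocytes, with 1 and 4 (13.6% and 22.2% of all genes). Between double and KEAP1 knockouts 0 of 9 were called in either material (0% and 2.75% of all genes called), with 0 members in liver and 1 in hepatocytes at an unadjusted p under 0.05 (7.59% and 14.8% of all genes). NEMO loss against control also gave 0 of 9 in liver and in hepatocytes, where 1.33% and 6.65% of genes were called and 2 and 0 members had an unadjusted p under 0.05 (18% and 19.2% of all genes). The interaction, which asks whether the double knockout departs from the sum of the 2 single knockouts, gave 0 calls among members (0.0106% of genes in liver and 0.0425% in hepatocytes). At an unadjusted p under 0.05 there were 1 and 0 members (5.06% and 9.93% of all genes), and Dnajb9 was at 0.53 ± 0.21 in liver. Whether a change from control differed between liver and hepatocytes was tested for each knockout, and no member was called (0.0691% of genes for NEMO, 0% for KEAP1 and 0.0691% for the double knockout). At an unadjusted p under 0.05 there were 0 members in each, against 9.46%, 5.68% and 7.59% of all genes. For Dnajb9 in double knockouts against control it was -0.09 ± 0.33 (95% interval -0.78 to 0.59), and for Trib3 -0.04 ± 0.36 (-0.79 to 0.71). The double against control and double against NEMO comparisons share the double knockout arrays, and the comparisons against control share the controls.

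Other genes of the pathways were followed through lists by function, whose medians stand beside that of all genes. Among 17 endoplasmic reticulum chaperones and folding enzymes, 1 was called higher in double knockout hepatocytes against control, against 9.72% of all genes: Dnajc10, a disulfide reductase with a BiP-binding domain, by 0.54 ± 0.13 (limma, adjusted p = 0.0168). The list's median difference was 0.11, against -0.03 for all genes. Dnajc10 was 6.73, 6.69 and 7.45 in control livers and 7.50, 7.58 and 7.99 in double knockout livers. Without the arrays in doubt it was higher than in control in all 3 knockout livers, by 0.89 ± 0.11 without NEMO, 0.69 ± 0.11 without KEAP1 and 0.84 ± 0.12 without both (limma, adjusted p = 0.000542, 0.0046 and 0.00166). In these fits 27.3%, 20.5% and 24.3% of all genes had an unadjusted p under 0.05 (limma). In NEMO knockout livers, where 1.33% of all genes were called, 1 of the 17 fell with all arrays, Ero1b, an oxidase that renews disulfide-forming enzymes, by 0.67 ± 0.13 (limma, adjusted p = 0.028).

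Of 22 genes of translocation and degradation at the endoplasmic reticulum, 2 were called higher in double knockout hepatocytes against control, Sec24d and Ssr3, where 9.72% of all genes were called. Ssr3, a subunit of the translocon-associated complex, rose by 0.37 ± 0.08 there (limma, adjusted p = 0.00737) and by 0.33 ± 0.08 in KEAP1 knockout hepatocytes (limma, adjusted p = 0.0456). Its control hepatocytes were at 10.20, 10.06 and 10.23, below all 9 knockout hepatocyte arrays, which were at 10.34 to 10.65. Derl2, a channel component of degradation, fell by 0.48 ± 0.09 in NEMO knockout hepatocytes (limma, adjusted p = 0.0074) and was 0.38 ± 0.09 higher in double than in NEMO knockouts (limma, adjusted p = 0.048). Of 12 sensors and transducers, Creb3l2, a membrane-bound factor related to ATF6, rose by 1.03 ± 0.21 in double knockout hepatocytes against control (limma, adjusted p = 0.00582). Eif2ak3, which encodes PERK, was called without the arrays in doubt in livers against control, by 0.74 ± 0.11 in NEMO knockouts (limma, adjusted p = 0.00166) and 0.45 ± 0.12 in double knockouts (limma, adjusted p = 0.0423). In these fits 27.3% and 24.3% of all genes had an unadjusted p under 0.05 (limma). None of 13 cytosolic heat shock genes was called by limma between genotypes of the hepatocytes, with all arrays or without those in doubt. In livers the 1 such call was Hsph1, which fell by 0.70 ± 0.19 in NEMO knockouts against control without the arrays in doubt (limma, adjusted p = 0.0357). That fit is the one with 27.3% of all genes at an unadjusted p under 0.05 (limma). Of 10 mitochondrial chaperones and proteases, Dnaja3 fell by 0.30 ± 0.08 in NEMO knockout hepatocytes (limma, adjusted p = 0.0383).

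Of 28 genes for amino acid supply and tRNA charging linked to ATF4, 3 were called higher and 3 lower in double knockout hepatocytes against control, with a median of -0.01 (-0.03 for all genes). All genes called there, 9.72%, split into 1267 higher and 563 lower. Without the arrays in doubt 4 were higher and 1 lower, with 9.23% of all genes called. The 3 higher were the transporters Slc7a11, Slc1a4 and Slc3a2. Slc7a11, which imports cystine and is also an NRF2 target, was 2.98, 3.34 and 3.21 in control and 9.14, 9.88 and 8.31 in double knockout hepatocytes, a rise of 5.93 ± 0.37 (limma, adjusted p = 1.19e-06). KEAP1 knockout hepatocytes lay between, at 4.99, 6.43 and 5.57, and the interaction of 3.54 ± 0.53 was called (limma, adjusted p = 0.0379). Slc1a4, a carrier of alanine, serine and cysteine, was 5.15, 4.43 and 4.50 in control and 6.86, 7.63 and 6.39 in double knockout hepatocytes, a rise of 2.26 ± 0.26 (limma, adjusted p = 0.000126). Slc3a2, the partner chain of Slc7a11, rose by 0.75 ± 0.14 (limma, adjusted p = 0.00315), and Slc38a2, a neutral amino acid carrier, fell by 0.63 ± 0.18 (limma, adjusted p = 0.039). Cbs, the first enzyme of transsulfuration, was 0.55 ± 0.12 lower in double than in NEMO knockout hepatocytes (limma, adjusted p = 0.0252 for a difference of -0.55).

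Of 16 regulators and outputs of the integrated stress response, 4 were called higher in double knockout hepatocytes against control, and 2 without the arrays in doubt, where 9.72% and 9.23% of all genes were called. The list's median difference was -0.09, against -0.03 for all genes. Ddit4, an inhibitor of mTORC1, was 5.19, 5.02 and 5.58 in control, 5.41, 5.36 and 4.84 in NEMO knockout, 7.97, 7.19 and 6.21 in KEAP1 knockout and 7.87, 9.32 and 6.45 in double knockout hepatocytes. No array without KEAP1 overlapped one with it. The double knockout rose by 2.62 ± 0.56 against control (limma, adjusted p = 0.00924) and by 2.68 ± 0.56 against NEMO knockout (limma, adjusted p = 0.0214). The other 3 were Tnfrsf10b, a death receptor (0.75 ± 0.19), Sesn2, a leucine-sensing inhibitor of mTORC1 (0.67 ± 0.20), and Eif4ebp1, a repressor of translation initiation (0.35 ± 0.10). Sesn2 in livers was called against control without the arrays in doubt, at 1.06 ± 0.20 in KEAP1 knockouts (limma, adjusted p = 0.0113) and 0.90 ± 0.22 in double knockouts (limma, adjusted p = 0.0266).

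**Figure D3:**
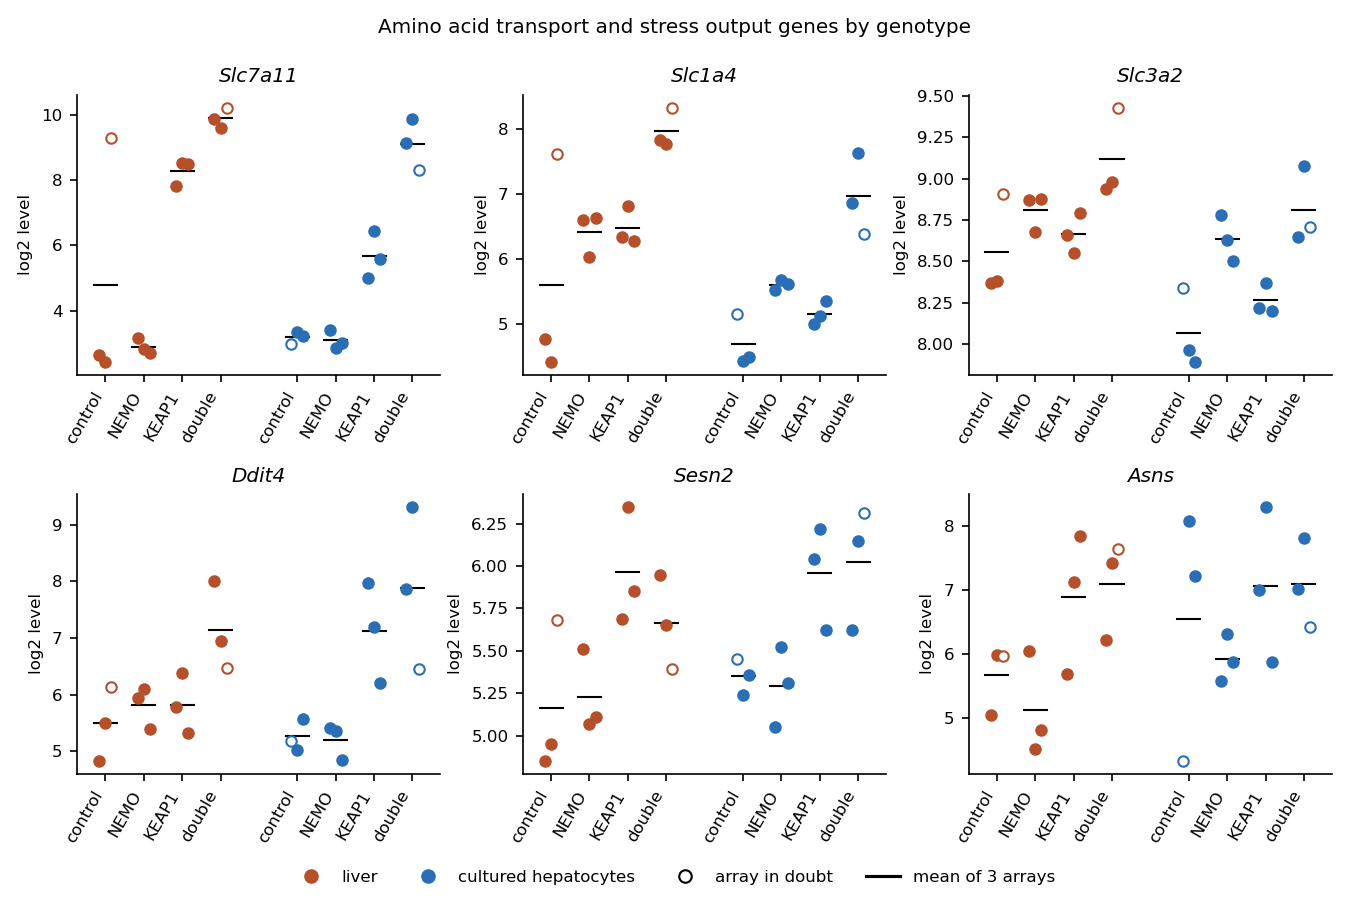
Log2 level (vertical axis) of 5 genes of amino acid transport and stress output and of Asns on every array, by genotype (horizontal axis), for liver (orange) and hepatocytes (blue). Points are arrays, lines are means of 3, and open points are the 4 arrays in doubt. Slc7a11 and Slc1a4 on the open liver control point, 9.29 and 7.61, lie far above the other 2 liver controls.

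Culture was compared with liver within each genotype. With all arrays 0 of 9 members were called in any of the 4 genotypes, where 5.13% (control), 3.77% (NEMO knockout), 2.49% (KEAP1 knockout) and 2.24% (double knockout) of genes were called, and 3, 1, 0 and 1 members had an unadjusted p under 0.05 (17%, 20.3%, 15.7% and 17% of all genes). Trib3 was higher in hepatocytes by 0.69 ± 0.25, 0.71 ± 0.25, 0.49 ± 0.25 and 0.73 ± 0.25 in these genotypes. Without the arrays in doubt the difference in NEMO knockouts, 0.71 ± 0.20, was called (limma, adjusted p = 0.035; 7.86% of genes called). Dnajb9 differed in the other direction, from -0.35 to -0.56, and was not called. Among the 16 regulators and outputs, 4 were called higher in cultured than in liver controls and 0 lower, and 3 and 0 without the arrays in doubt. Atf3, a stress-induced repressor, was 4.82, 4.45 and 6.24 in control livers and 9.86, 8.98 and 7.47 in control hepatocytes, a difference of 3.60 ± 0.57 (limma, adjusted p = 0.000357). Gadd45a, a growth arrest gene, was 5.19, 4.61 and 5.12 in livers and 8.56, 8.12 and 6.67 in hepatocytes, a difference of 2.81 ± 0.42 (limma, adjusted p = 0.000194). Ppp1r15a, the phosphatase subunit that reverses eIF2alpha phosphorylation, was higher by 0.98 ± 0.20 (limma, adjusted p = 0.00315), and Cebpb, a partner of ATF4, by 0.68 ± 0.13 (limma, adjusted p = 0.00228). Gadd45a was called in all 4 genotypes, by 2.47 in NEMO knockouts, 1.75 in KEAP1 knockouts and 1.75 in double knockouts. Against liver, 7 of 8 stellate, 7 of 7 macrophage and 6 of 6 endothelial markers were called lower in control hepatocytes (6, 4 and 6 without the arrays in doubt), and their part in these differences was not tested.

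**Figure D4:**
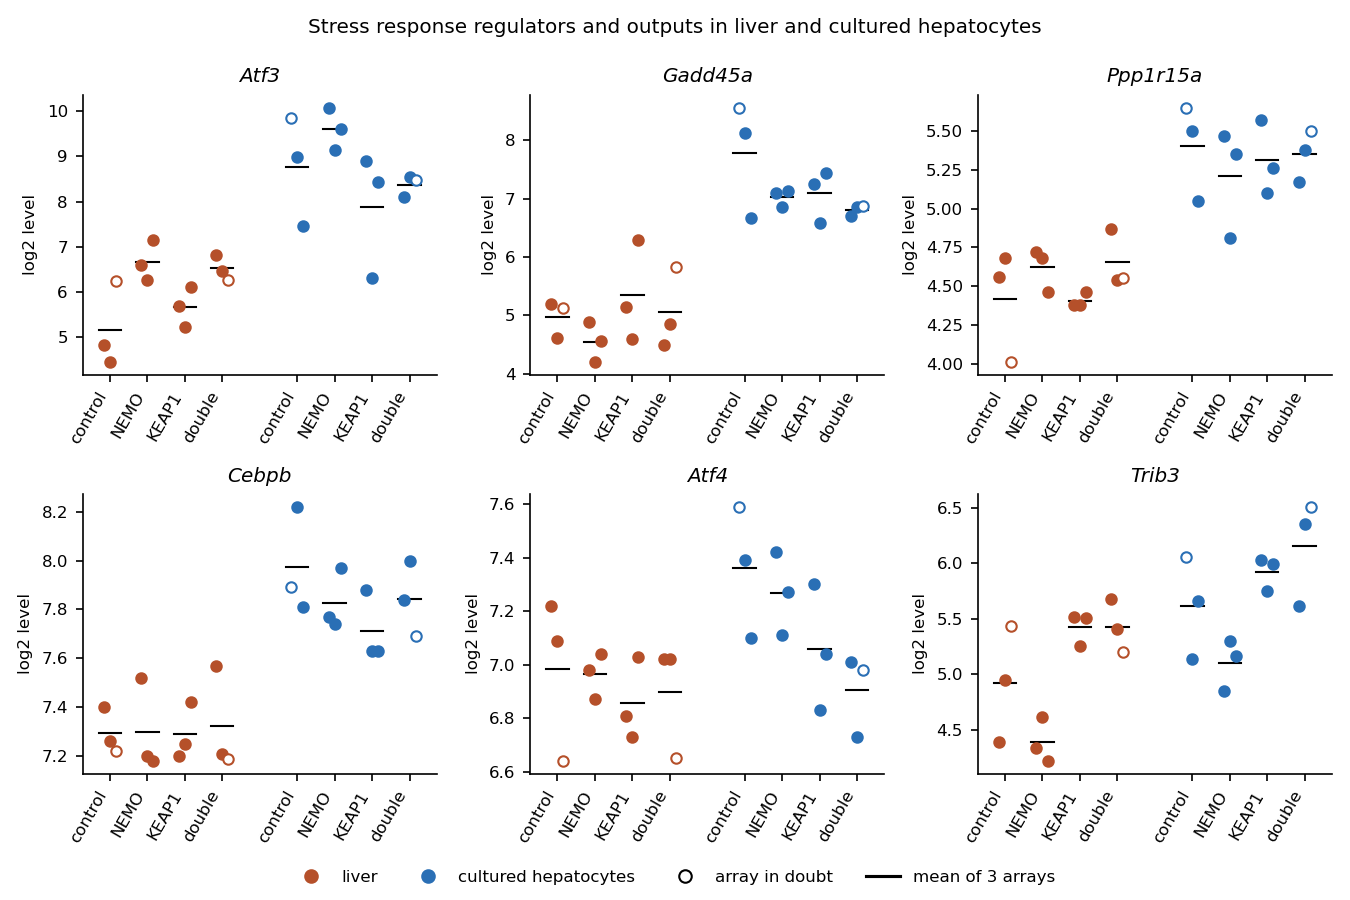
Log2 level (vertical axis) of 4 regulators and outputs and of Atf4 and Trib3 on every array, by genotype (horizontal axis), for liver (orange) and cultured hepatocytes (blue). Points are arrays, lines are means of 3, and open points are the 4 arrays in doubt. Gadd45a on every hepatocyte array, at 6.58 to 8.56, exceeds every liver array, at 4.20 to 6.29. Atf4 overlaps between the materials except within NEMO knockouts, where hepatocytes, at 7.11 to 7.42, lie above livers, at 6.87 to 7.04.

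The levels of the 9 genes were correlated over the 24 arrays, those in doubt included, each set relative to the mean of its material. The correlation was 0.76 between Hspa5 and Hsp90b1, 0.62 between Dnajc3 and Herpud1 and 0.57 between Dnajb9 and Trib3. Dnajb9 also had 0.54 with Dnajc3, 0.53 with Herpud1 and 0.5 with Asns, and Xbp1 and Atf4 had 0.48. Trib3 went against Hsp90b1 (-0.54) and Xbp1 (-0.56), and Dnajb9 and Hspa5 had 0.32. The arrays share genotypes, so these are descriptions without a p. Over all genes the 5 most like Hspa5 were Manf (0.905), Sdf2l1 (0.883), Tmed9 (0.849), Dnajb11 (0.824) and Creld2 (0.823). The 5 most like Trib3 were Abcg5 (0.933), Abcc3 (0.922), Abcg8 (0.916), Lrrc51 (0.913) and Cyp2a5 (0.911). Manf, a secreted stress-induced protein, was 7.09, 6.97 and 7.01 in control hepatocytes and 7.99, 7.49 and 6.74 in double knockouts, where the array of 6.74 is the one that was also lowest for Hspa5.

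**Figure D5:**
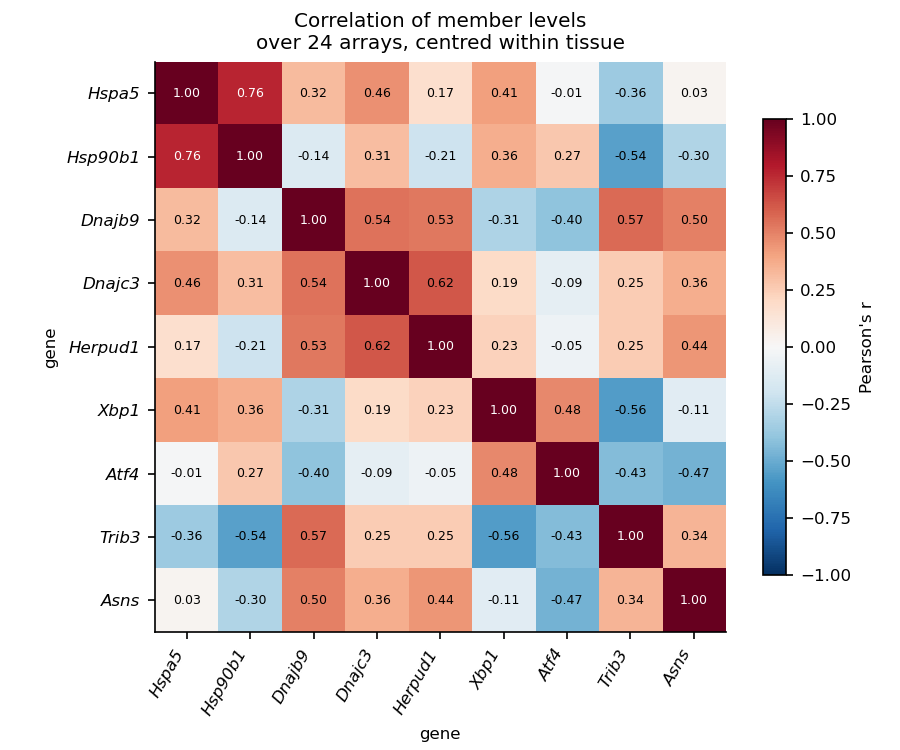
Pearson correlation (colour and printed value) between each pair of the 9 genes, listed on both axes, over 24 arrays centred within liver and within hepatocytes. Red marks values above 0 and blue values below 0. The strongest pair is Hspa5 and Hsp90b1 at 0.76, and Trib3 is below 0 with Hspa5, Hsp90b1, Xbp1 and Atf4.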

How the data were processed

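Expression was measured in 24 samples on 1-colour Affymetrix mouse arrays. The authors deposited log2 values per probe set; the submitters' processing notes name RMA, with no version. Array medians lay between 4.03 and 4.23. Precision is limited by the 3 arrays in each group, and by 2 in each control and double knockout group without the arrays in doubt. Of 35556 probe sets, 21218 had 1 symbol, 1881 had several and 12457 were not listed with one, which gave 18820 genes.

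The tests used limma 3.58.1 (lmFit, then eBayes with an intensity trend, R 4.3.3, two-sided, Benjamini-Hochberg over all 18820 genes, called at an adjusted p under 0.05), on the 12 arrays of a tissue or on all 24 between tissues. The code was tested on simulated data. Labels do not say whether replicates are separate animals, so p-values may measure technical spread. No batch is named in the labels.

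The members and gene lists were chosen with earlier results of these data known. Named genes are all members, at most 4 called genes per list and comparison with the largest change, the 5 most like Hspa5 and Trib3, and Ikbkg, Keap1 and Nqo1; Adipoq, Xist, Eif2s3y and the cell type markers Marco, Lyve1, Sdc1, Cela1 and S100a8 were chosen after their values were seen. Same-numbered arrays deviated together (every residual correlation over 0.1, the lowest 0.115) only between liver controls and liver double knockouts. The block is given there, and elsewhere only where it changed a call. Replicate 3 of both the liver controls and the liver double knockouts is an array in doubt, so the correlations do not show that the numbers pair samples. Promoters were searched in Python 3.11.15. Alternatives covered scaling, quantile normalization, low genes, probe set choice, the trend, the arrays fitted, the block and single arrays left out.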

Additional observations from a re-analysis of the deposited data

How the results depend on the processing

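Over 171 changes of single members and 2691 recomputed values, 0 called values reversed, and 231 values called in neither setting changed sign. Quantile normalization and the mean of all probe sets left every member's call as it was. The number of the 9 members called moved in 8 comparisons. In double against NEMO knockout livers, 1 with all arrays, it was 2 with low genes left out, with array medians set equal, with all 24 arrays in 1 fit, with only the groups compared and without the 4 arrays in doubt, and 0 to 1 with single arrays left out. Of 18820 genes, 197 were called there with all arrays and 186 with equal medians. The figure was 442 with all 24 arrays in 1 fit, 333 with only the groups compared and 651 without those in doubt. Against liver controls, 0 with all arrays, the member count was 3 in KEAP1 knockouts and 3 in double knockouts without the arrays in doubt, 0 to 2 and 0 to 3 with single arrays left out, and 1 in double knockouts with the replicate block. All genes called were 990 and 1732 without the arrays in doubt, and 799 in double knockouts with the block. In double knockout hepatocytes against control, 0 with all arrays, the member count was 2 with array medians set equal, 2 with the replicate block, 1 with all 24 arrays in 1 fit, 1 without the arrays in doubt and 0 to 1 with single arrays left out. All genes called were 1830 with all arrays, 4161 with equal medians and 1840 with the block. They were 1639 with all 24 arrays in 1 fit and 1738 without those in doubt. In double against NEMO knockout hepatocytes, 1 with all arrays, the member count was 0 with no intensity trend, 2 with all 24 arrays in 1 fit and 0 to 1 with single arrays left out. All genes called were 624 with all arrays and 467 with all 24 arrays in 1 fit. The replicate block there gained Dnajb9 (limma, adjusted p = 0.0437) and lost Trib3 (0.0505), with 642 genes called. The replicate numbers were not shown to pair samples, and beside the counts given here the block changed no call. Between hepatocytes and liver, 0 with all arrays, the member count was 1 in controls, 2 in NEMO knockouts and 1 in double knockouts with array medians set equal, 1 in NEMO knockouts without the arrays in doubt, and 0 to 1 in controls and in double knockouts with single arrays left out. All genes called with equal medians were 2002 in controls, 2623 in NEMO knockouts and 1388 in double knockouts. Without the arrays in doubt 1480 were called in NEMO knockouts. The cause of the moves in member counts was not tested.

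Equal array medians also moved the split of all genes called. It went from 1267 higher and 563 lower to 925 and 3236 in double knockout hepatocytes against control, from 867 and 385 to 718 and 2378 in NEMO knockout hepatocytes, from 272 and 80 to 189 and 165 in KEAP1 knockout hepatocytes and from 191 and 60 to 160 and 152 in NEMO knockout livers. Between double and KEAP1 knockout hepatocytes it went from 407 and 111 to 290 and 309. Between hepatocytes and liver it went from 243 and 723 to 1453 and 549 in controls, from 205 and 505 to 2222 and 401 in NEMO knockouts, from 89 and 380 to 1075 and 331 in KEAP1 knockouts and from 85 and 337 to 1082 and 306 in double knockouts. Leaving out single arrays moved all genes called between 0 and 2207 in double knockout against control livers, 23 and 1409 in NEMO knockout livers and 16 and 175 in double against NEMO knockout livers. The same ranges were 0 to 497 in KEAP1 knockout livers, 807 to 1196, 123 to 405 and 1042 to 1946 in NEMO, KEAP1 and double knockout hepatocytes against control, 293 to 530 and 157 to 571 in double against NEMO and KEAP1 knockout hepatocytes, and 638 to 964, 208 to 559, 155 to 385 and 132 to 669 between hepatocytes and liver in control, NEMO, KEAP1 and double knockouts. Without the 4 arrays in doubt 990 genes were called in KEAP1 knockout and 1732 in double knockout livers against control, and 651 in double against NEMO knockout livers.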
